A study of Mus musculus with 15 samples.

Results

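The genes of the cytosolic ribosomal proteins were followed in the liver of mice under 3 feeding regimens. A gene was taken when the deposited table called it protein coding and its symbol was Rpl or Rps with a number and at most an a, x or l behind it, or was Rplp0, Rplp1, Rplp2 or Rpsa. This gave 81 of the 35275 genes of the table, 49 of the large subunit and 32 of the small subunit. They cover 76 of the 80 proteins that are usually listed for the mammalian ribosome, and the remaining 5 members are the paralogs Rpl3l, Rpl10l, Rpl39l, Rps4l and Rps27l. The set is nearly complete but not complete, since genes such as Rps3a1, Fau and Gnb2l1 do not have symbols of this form, and the values of these 3 are given apart. The members lie on 19 chromosomes, with at most 14 on any of them.

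The study compared liver gene expression between the regimens. All mice were C57BL/6, began at an age of 3 months and ended at 6 months after 3 months on their regimen. The groups were every-other-day fasting with fasts of 24 h (EOD), intermittent fasting of 16 h (IF16) and free access to food (ad libitum, AL), with 5 libraries each of poly-T selected messenger RNA from the left lateral lobe. The labels give neither the sex of the mice nor the hour of sampling or the time since the last meal. They do not say that each library came from a separate mouse, so that the p-values describe library-to-library spread, some of which may be technical. Library totals ran from 28129883 to 38147534 counts, so that 3 counts, taken as the floor, amount to 0.0786 to 0.107 CPM (counts scaled to the library size).

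A ribosome is built from ribosomal RNA and about one copy of each of these proteins, which are made in the cytoplasm, imported into the nucleolus and assembled there into a large and a small subunit. Their messengers start with a C followed by a run of pyrimidines, the 5′ terminal oligopyrimidine (TOP) motif, through which the kinase complex mTORC1 and the RNA-binding protein Larp1 set how much of them is translated in fed and fasted cells. Liver makes most plasma proteins and holds many ribosomes, and it is known to lose part of them during a fast and to rebuild them on feeding.

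The starts of the genes were read to show this motif. RefSeq promoter sequences (build GRCm38.p6) were on hand for 60 of the 81 members, and 48 of these starts lay within 100 bases of the deposited gene start. A C exactly at the start with 4 pyrimidines behind it stood in 12 of the 60, a share of 20%, against 2.49% of 26965 other genes. Of the members, 31.7% had a run of at least 8 pyrimidines that began within 10 bases of the start, against 9.11% of the other genes. For members the start nearest the deposited gene start was read, and for the other genes, tested here or not, the first by position. The shares of members and other genes thus rest on unlike choices of start. The 8 stretches below run from 25 bases before the start to 25 bases after it, with the longest such run in capitals. They show the members called higher in IF16 that had a sequence (Rps27, Rps28), members with large changes (Rps9, Rpl35), a stalk protein (Rplp2), the substrate of the S6 kinases (Rps6), and members that stayed close to their AL level (Rpl28, Rpl14). The motifs, the windows and these 8 genes were chosen after the sequences and values had been seen. The deposited gene of Rpl35, on the minus strand, begins at 39005624, and that of Rplp2 at 141447370. Their printed starts thus lie more than 100 bases inside the deposited genes.
Rps27, chr3:90213624-90213673, minus strand: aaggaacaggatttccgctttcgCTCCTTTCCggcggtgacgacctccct
Rps28, chr17:33824538-33824587, minus strand: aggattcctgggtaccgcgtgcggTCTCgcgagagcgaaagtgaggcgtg
Rps9, chr7:3704016-3704065, plus strand: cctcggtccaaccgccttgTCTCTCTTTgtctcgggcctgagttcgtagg
Rpl35, chr2:39005107-39005156, minus strand: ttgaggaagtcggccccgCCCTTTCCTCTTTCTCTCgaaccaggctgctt
Rplp2, chr7:141447626-141447675, plus strand: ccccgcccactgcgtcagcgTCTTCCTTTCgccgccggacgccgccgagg
Rps6, chr4:86857343-86857392, minus strand: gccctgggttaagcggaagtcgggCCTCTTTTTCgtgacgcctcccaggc
Rpl28, chr7:4792940-4792989, plus strand: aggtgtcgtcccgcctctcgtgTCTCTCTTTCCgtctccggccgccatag
Rpl14, chr9:120571492-120571541, plus strand: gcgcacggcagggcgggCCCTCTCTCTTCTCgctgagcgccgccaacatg
The runs were 9 bases long in Rps27 and in Rps9, 10 in Rplp2 and in Rps6, 18 in Rpl35, 11 in Rpl28, 14 in Rpl14 and 4 in Rps28. The letters CGGAAGT, the core of sites bound by ETS factors, stood on either strand in 21 of the 60 members over the 250 bases before and 50 bases after the start, a share of 35%, against 6.44% of the other genes, and can be read in the Rps6 stretch. GATGGCG, as found in sites of YY1, stood in 6.67% of the members and 3.58% of the other genes, and TATAAA in 8.33% and 14.1%, both strands counted. These are matches of letters and were not tested as sites.

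The members were among the most abundant messengers of the liver. Levels are given in FPKM, which are counts scaled by gene length and library total. They depend on the deposited length of each gene. The 76 tested members that are listed ribosomal proteins had a median level of 358 FPKM over the 15 libraries. For all 13837 tested genes the median was 2.82 FPKM. Of these 76, 69 were above 100 FPKM, and 51 lay within a factor of 2 of the median, for proteins that are used in equal numbers. The highest levels were those of Rps27, a zinc-binding protein of the small subunit, at 1670 FPKM, of Rpl36 at 1450 FPKM and of the stalk protein Rplp1 at 1310 FPKM. In the small subunit Rps2 at 887 and Rps15 at 762 FPKM followed Rps27, and in the large subunit Rpl10, which joins the particle late, had 785 FPKM. The lowest were Rpl24 at 0.684 FPKM, Rpl23a at 12.0 FPKM and Rpl35 at 24.5 FPKM in the large subunit and Rps4l at 18.7 FPKM, Rps15a at 34.0 FPKM and Rps20 at 70.7 FPKM in the small subunit. The deposited lengths of Rps15a and Rps20 were 5130 and 3706 bases, against a median of 929 bases over tested members, which lowers their FPKM. Those of Rps27, Rpl36 and Rplp1 were 255, 404 and 495 bases, which raises theirs. In CPM, which are not scaled by length, Rps27 averaged 594 in EOD and Rps2 1070. The part of gene length in the ranking and spread of levels was not tested. The genes with the lowest levels of each subunit include members that share bases with another gene of the table: Rpl24 with Gm28037 on the same strand, Rpl23a with Tlcd1, Rpl35 with Wdr38 and Rps4l with Tmtc1 on the opposite strand. In all, 20 of the 78 tested members overlap another gene, and their levels are uncertain. The sources used here do not give whether strand was used in counting. For overlaps on the same strand, as of Rpl24, strand could not separate the reads.

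**Figure D1:**
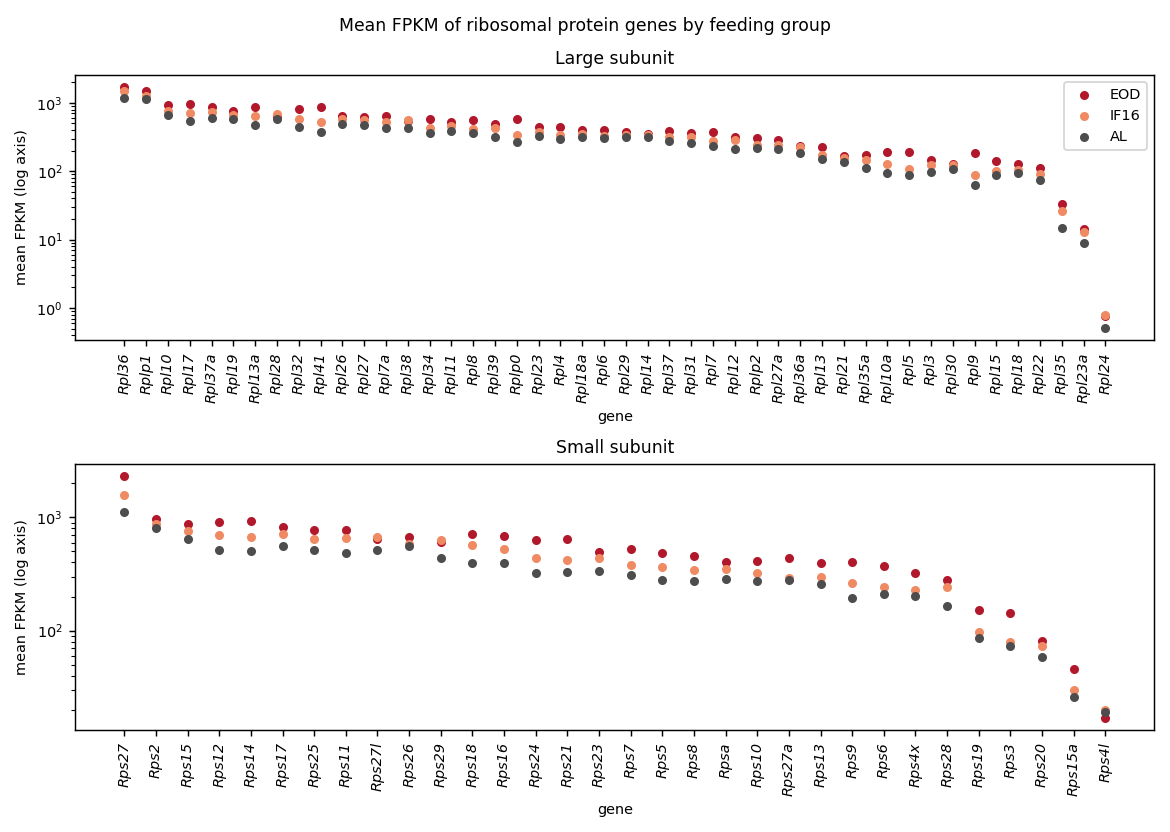
Mean FPKM (log axis) of each tested member in EOD, IF16 and AL (n = 5 libraries each), ordered by the level over all libraries, with the large subunit above and the small subunit below. Most members lie above 100 FPKM, and Rpl35, Rpl23a and Rpl24 drop off at the right of the large subunit.

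3 members could not be tested because their counts were too low, and all 3 are paralogs known mainly from muscle or testis. Rpl3l, the striated muscle copy of Rpl3, had 1 to 4 counts in the EOD libraries, 33 counts in IF16 5 with 2 or 3 in the other IF16 libraries, and 0 to 3 in the AL libraries. Rpl39l had at most 2 counts in EOD, 6 in IF16 4 with at most 1 in the others of its group, and at most 1 in AL. Rpl10l had 2 counts in IF16 5 and 0 in each of the other libraries, where a count of 0 allows up to 0.0786 to 0.107 CPM.

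The ribosomal protein messengers took a larger part of the library in mice on the 2 fasting regimens. The 81 members held 3.24%, 3.30%, 3.93%, 4.12% and 2.85% of the counts in EOD 1 to 5, against 2.49%, 2.72%, 3.03%, 2.76% and 2.85% in IF16 1 to 5 and 2.02%, 2.23%, 2.35%, 2.37% and 2.40% in AL 1 to 5. The EOD libraries and the IF16 libraries were all above the AL libraries, and EOD 5 was the only EOD library that did not exceed every IF16 library. The means were 3.49% ± 0.523 in EOD, 2.77% ± 0.199 in IF16 and 2.27% ± 0.155 in AL (SD, n = 5 each). The large subunit held 2.06% ± 0.293, 1.65% ± 0.110 and 1.37% ± 0.0967 of the counts in EOD, IF16 and AL, and the small subunit 1.43% ± 0.229, 1.12% ± 0.0894 and 0.899% ± 0.0581. The ratio of large to small subunit counts was 1.44 ± 0.0328 in EOD, 1.47 ± 0.0226 in IF16 and 1.53 ± 0.0134 in AL, and every EOD library was below every AL library. These sums over the members are descriptions without a test.

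Mitochondrially encoded transcripts, which are part of the same library total, went the other way, with 6.89% ± 1.87 of the counts in EOD, 10.4% ± 1.11 in IF16 and 11.5% ± 2.16 in AL (SD, n = 5 each). Within EOD, the libraries with the largest ribosomal protein share, EOD 3 and EOD 4, had 5.34% and 5.84% mitochondrial counts, and EOD 5 with the smallest share had 10.1%. When the scaling factors were computed without the members and without the mitochondrially encoded genes, 72 members were higher in EOD than in AL, against 71 with the usual scaling, with a median log2 fold change of 0.61. In bulk tissue, fewer cells of a type and less RNA per cell cannot be told apart.

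**Figure D2:**
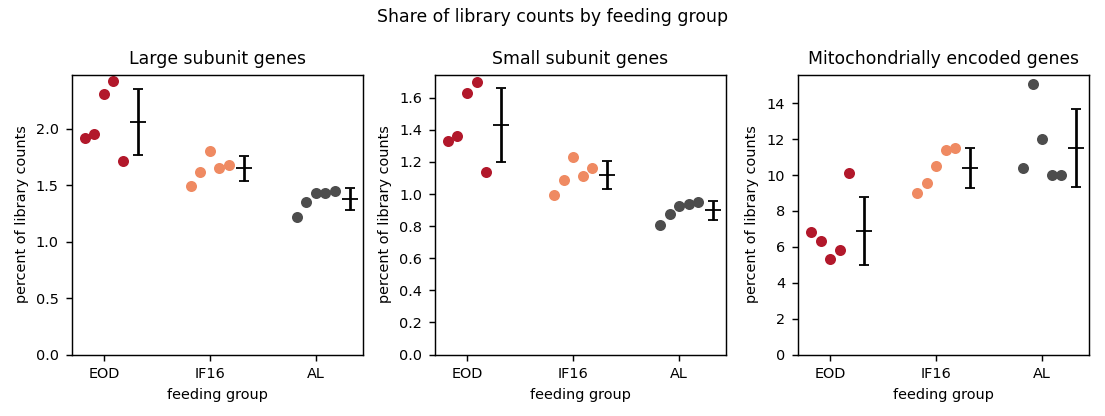
Percent of the library counts held by large subunit genes, small subunit genes and mitochondrially encoded genes in each library, by feeding group, with mean and SD (n = 5) at the right of the points. In the first 2 panels EOD 1 to 4 lie above all IF16 and AL libraries and EOD 5 lies among the IF16 libraries, and in the third panel EOD 5 is the highest EOD library.

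Nearly the whole set was higher under every-other-day fasting. Of 78 tested members, 71 rose in EOD against AL and 0 fell (edgeR quasi-likelihood test, adjusted p under 0.05 over all 13837 tested genes). Over all tested genes, 17.6% were higher and 17.6% lower in EOD. No member was lower at an unadjusted p under 0.05 (count 0), nor with DESeq2 or limma (0 each). The median log2 fold change of the members was 0.60, which is 1.52 fold, against -0.01 over all tested genes. In the large subunit 41 of 46 rose, with a median of 0.57, and in the small subunit 30 of 32 rose, with a median of 0.72. In 47 members every EOD library was above every AL library, which held for 8.46% of all tested genes. Only 8 members rose more than 2 fold, 6 of the large and 2 of the small subunit.

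The largest change was that of Rpl9, a large subunit protein near the base of the stalk (chromosome 5, 65388364 to 65391443, mm10). Rpl9 had 498, 490, 708, 568 and 233 CPM in EOD 1 to 5, against 165, 127, 179, 176 and 183 CPM in AL 1 to 5. Every EOD library was above every AL library, although EOD 5 was far below the other EOD libraries. The log2 fold change was 1.59 (SE 0.21, adjusted p = 4.38e-05). Rpl41, a very short protein at the contact of the subunits, averaged 620 ± 206 CPM in EOD and 260 ± 34.2 CPM in AL (SD, n = 5 each), log2 fold change 1.25 (SE 0.19, adjusted p = 1.34e-04). Rpl35, at the rim of the tunnel through which the new peptide leaves, averaged 31.4 ± 10.3 CPM in EOD and 14.0 ± 3.04 CPM in AL, log2 fold change 1.17 (SE 0.23, adjusted p = 0.00114).

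The stalk of the large subunit calls the elongation factors to the ribosome, and its 3 proteins rose together but by unequal amounts. Rplp0, the base on which the other two sit (chromosome 5, 115559467 to 115563727), had 842, 773, 1150, 819 and 445 CPM in EOD 1 to 5, against 328, 273, 368, 433 and 445 CPM in AL 1 to 5. EOD 5 lay level with AL 5 at this rounding, and the other EOD libraries were well above all AL libraries. The log2 fold change of Rplp0 was 1.13 (SE 0.19, adjusted p = 2.47e-04). Those of Rplp1 and Rplp2 were smaller, at 0.42 (SE 0.12, adjusted p = 0.0144) and 0.50 (SE 0.12, adjusted p = 0.00337), and in both the EOD and AL libraries overlapped.

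Rpl5 and Rpl11 carry 5S ribosomal RNA into the large subunit and, when free, bind the p53 regulator Mdm2. Rpl5 (chromosome 5, 107900502 to 107909005) had 379, 385, 522, 449 and 230 CPM in EOD 1 to 5, against 182, 130, 195, 207 and 196 CPM in AL 1 to 5. The groups did not overlap, with EOD 5 nearest to AL, and the log2 fold change was 1.11 (SE 0.17, adjusted p = 1.51e-04). Rpl11 rose 1.37 fold, also without overlap, and AL 1 was far below the other AL libraries. Rpl10a, on the mobile stalk at the side where spent tRNA leaves, rose 2.03 fold (adjusted p = 4.84e-05), Rpl8, near the peptide-bonding centre, rose 1.52 fold (adjusted p = 4.67e-04), and Rpl22 rose 1.53 fold (adjusted p = 0.00103), none of the 3 with overlap. Of 8 proteins at the rim of the exit tunnel, 7 rose, with log2 fold changes between 0.41 for Rpl19 and 1.17 for Rpl35. Rpl38, the remaining protein, whose loss disturbs the mouse skeleton, had 0.33 (adjusted p = 0.0854). This count is near the 71 of 78 over all tested members, beside 17.6% of all tested genes.

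In the small subunit the largest changes were those of Rps9 and Rps27. Rps27 (chromosome 3, 90212725 to 90213615), whose start is printed above, had 519, 590, 652, 765 and 442 CPM in EOD 1 to 5, against 233, 261, 295, 305 and 315 CPM in AL 1 to 5. Every EOD library was above every AL library, EOD 5 included, and the log2 fold change was 1.07 (SE 0.14, adjusted p = 2.47e-05). Rps9, which helps to keep decoding accurate, averaged 550 ± 130 CPM in EOD and 260 ± 21.7 CPM in AL (SD, n = 5 each), log2 fold change 1.08 (SE 0.14, adjusted p = 2.90e-05). Rps6 (chromosome 4, 86854660 to 86857412), the protein that the S6 kinases below mTORC1 phosphorylate, had 426, 406, 510, 488 and 293 CPM in EOD 1 to 5, against 212, 182, 237, 276 and 276 CPM in AL 1 to 5. The 2 groups did not overlap, and EOD 5 stood just above AL 4 and AL 5. Its log2 fold change was 0.84 (SE 0.14, adjusted p = 2.98e-04).

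Rps3 and Rps2 line the channel through which the messenger enters. Rps3 (chromosome 7, 99477896 to 99483738) had 500, 446, 667, 466 and 230 CPM in EOD 1 to 5, against 239, 189, 246, 264 and 229 CPM in AL 1 to 5. Here EOD 5 fell among the AL libraries while the other EOD libraries were far above them, and the log2 fold change was 0.98 (SE 0.19, adjusted p = 8.96e-04). Rps2 rose 1.22 fold (adjusted p = 0.0325). On the platform and the side where the messenger leaves, all 5 of Rps14, Rpsa, Rps26, Rps27 and Rps28 rose, from 0.28 for Rps26 (adjusted p = 0.0295) to 1.07 for Rps27. Rps21 rose 1.97 fold (adjusted p = 9.82e-05), and Rps27a, made as a fusion to ubiquitin, rose 1.61 fold (adjusted p = 0.00135). Of 9 members whose human counterparts are mutated in Diamond-Blackfan anaemia, all 9 rose. Among them were Rps19 by 1.80 fold (adjusted p = 6.83e-04) and Rps7 by 1.73 fold (adjusted p = 2.47e-04). The counts of these role groups are near the 71 of 78 over all tested members, beside 17.6% of all tested genes.

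7 members did not pass in EOD against AL. Rpl28, a large subunit protein without a bacterial counterpart, had 432, 446, 486, 542 and 532 CPM in EOD 1 to 5, against 324, 472, 459, 473 and 488 CPM in AL 1 to 5, so that the groups overlapped apart from the low AL 1. Its log2 fold change was 0.14 (SE 0.13, adjusted p = 0.447). Rpl14 had 0.17 (SE 0.11, adjusted p = 0.238), Rpl30 had 0.25 (adjusted p = 0.0513) and Rpl24, at less than 1 CPM in every library, had 0.59 (SE 0.40, adjusted p = 0.262). Both Rpl28 and Rpl14 carry a C at the start and a long pyrimidine run, as printed above. Over the members with a promoter sequence, 16 of 19 with a run of at least 8 rose, with a median of 0.67, and 36 of 38 with a shorter run, with a median of 0.58.

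Neither of the tested paralogs passed. Rps27l, a p53 target in human cells, averaged 371 ± 86.4 CPM in EOD and 297 ± 27.9 CPM in AL (SD, n = 5 each), with log2 fold change 0.32 (SE 0.17, adjusted p = 0.148), beside 1.07 for Rps27. Rps4l averaged 16.1 ± 3.85 CPM in EOD and 18.0 ± 7.11 CPM in AL, with log2 fold change -0.16 (SE 0.25, adjusted p = 0.650), the only member below 0. The differences between paralog and parent were not tested.

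**Figure D3:**
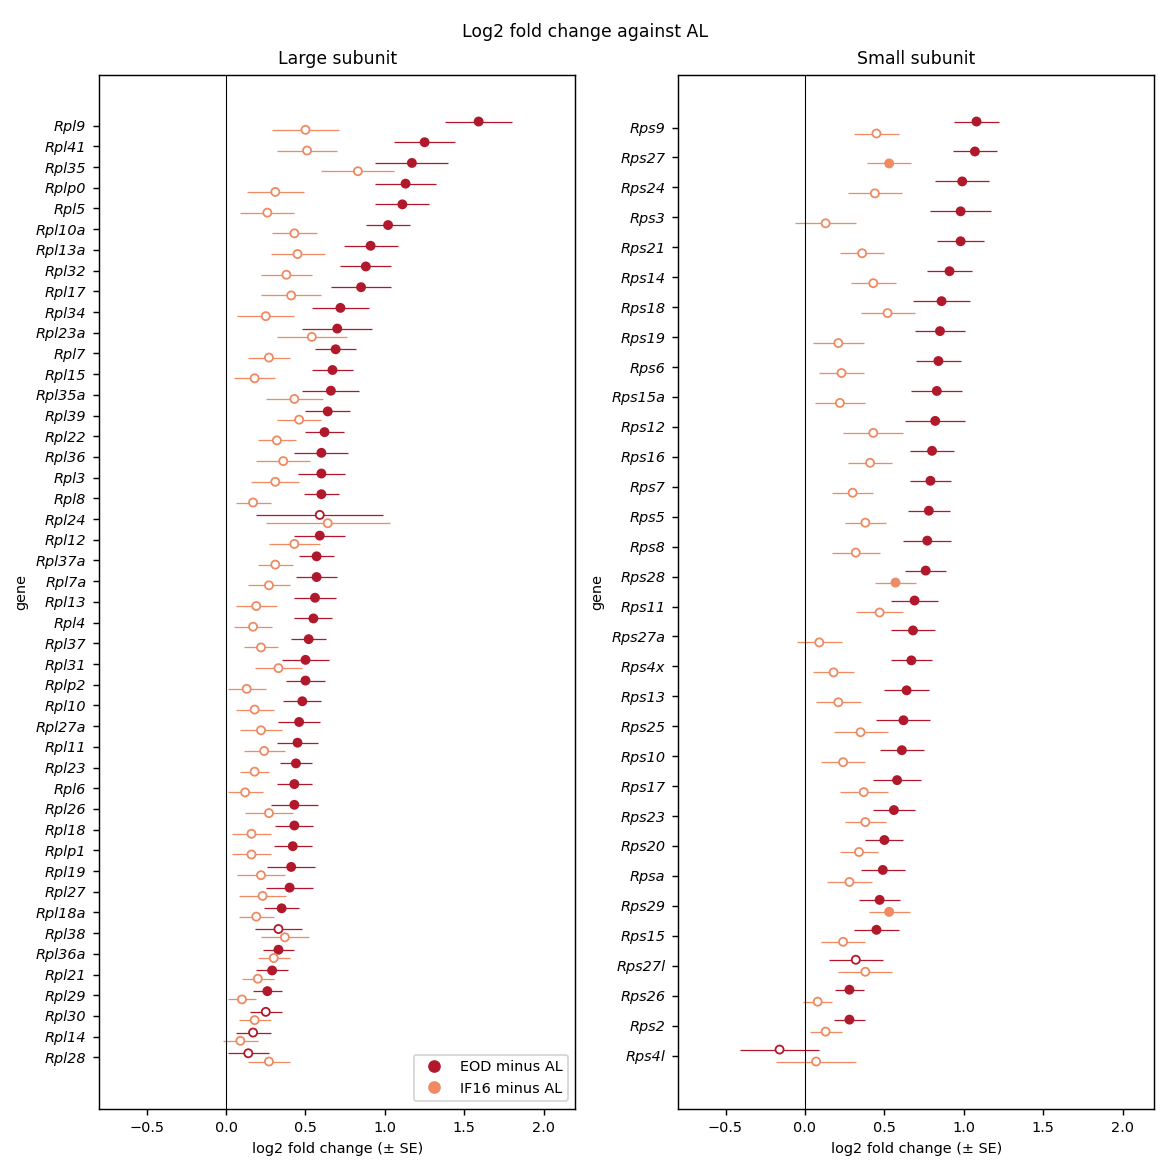
Log2 fold change of each tested member with its SE, EOD minus AL in dark red and IF16 minus AL in orange, from 1 fit of all 15 libraries. Filled points have an adjusted p under 0.05: 71 for EOD minus AL, and 3, all in the small subunit, for IF16 minus AL.

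Under intermittent fasting of 16 h the members leaned the same way, and few passed the test. Against AL, 3 of 78 members rose in IF16, namely Rps27, Rps28 and Rps29, and 0 fell (0 at an unadjusted p under 0.05, and 0 with DESeq2 or limma), where 1.40% of all tested genes were higher and 2.10% lower. All 78 log2 fold changes were above 0, with a median of 0.29, against 0.00 over all tested genes, and 37 members were at an unadjusted p under 0.05. In the large subunit 0 of 46 passed with edgeR, 18 were at an unadjusted p under 0.05, and 3 passed with DESeq2 and 3 with limma. In 5 members every IF16 library was above every AL library, which held for 2.59% of all tested genes.

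Rps28, at the exit of the messenger (chromosome 17, 33819027 to 33824562), had 166, 176, 222, 226 and 202 CPM in IF16 1 to 5, against 104, 122, 122, 162 and 158 CPM in AL 1 to 5. The groups did not overlap, with IF16 1 just above AL 4, and the log2 fold change was 0.57 (SE 0.13, adjusted p = 0.0213). Rps29, a zinc-binding protein of the head of the small subunit (chromosome 12, 69157722 to 69159186), had 235, 262, 324, 341 and 299 CPM in IF16 1 to 5, against 170, 195, 180, 238 and 232 CPM in AL 1 to 5. IF16 1 lay below AL 4, so the groups overlapped slightly, and the log2 fold change was 0.53 (SE 0.13, adjusted p = 0.0312). Rps27 had 342, 396, 469, 400 and 430 CPM in IF16 1 to 5, all above its AL libraries, with log2 fold change 0.53 (SE 0.14, adjusted p = 0.0384). In these 3 genes AL 1 was the lowest AL library and IF16 1 the lowest IF16 library.

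Each of these 3 calls was lost in some fit with a single library left out. For such fits, calls over all tested genes were not counted. Without AL 1, AL 3, IF16 3, IF16 4 or IF16 5, each left out alone, 0 members passed in IF16 against AL (the lowest count), without AL 2 or IF16 2 it was 1, without EOD 4, EOD 5 or IF16 1 it was 5, 7 and 9, and without any of the remaining 5 libraries it was 2 or 3. Rpl35 had the largest log2 fold change, 0.83 (SE 0.23, adjusted p = 0.0581), at 24.7 ± 6.44 CPM in IF16 and 14.0 ± 3.04 CPM in AL (SD, n = 5 each). The stalk proteins Rplp0, Rplp1 and Rplp2 had 0.31, 0.16 and 0.13 (adjusted p = 0.390, 0.537 and 0.619), and Rps6 had 0.23 (adjusted p = 0.431).

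**Figure D4:**
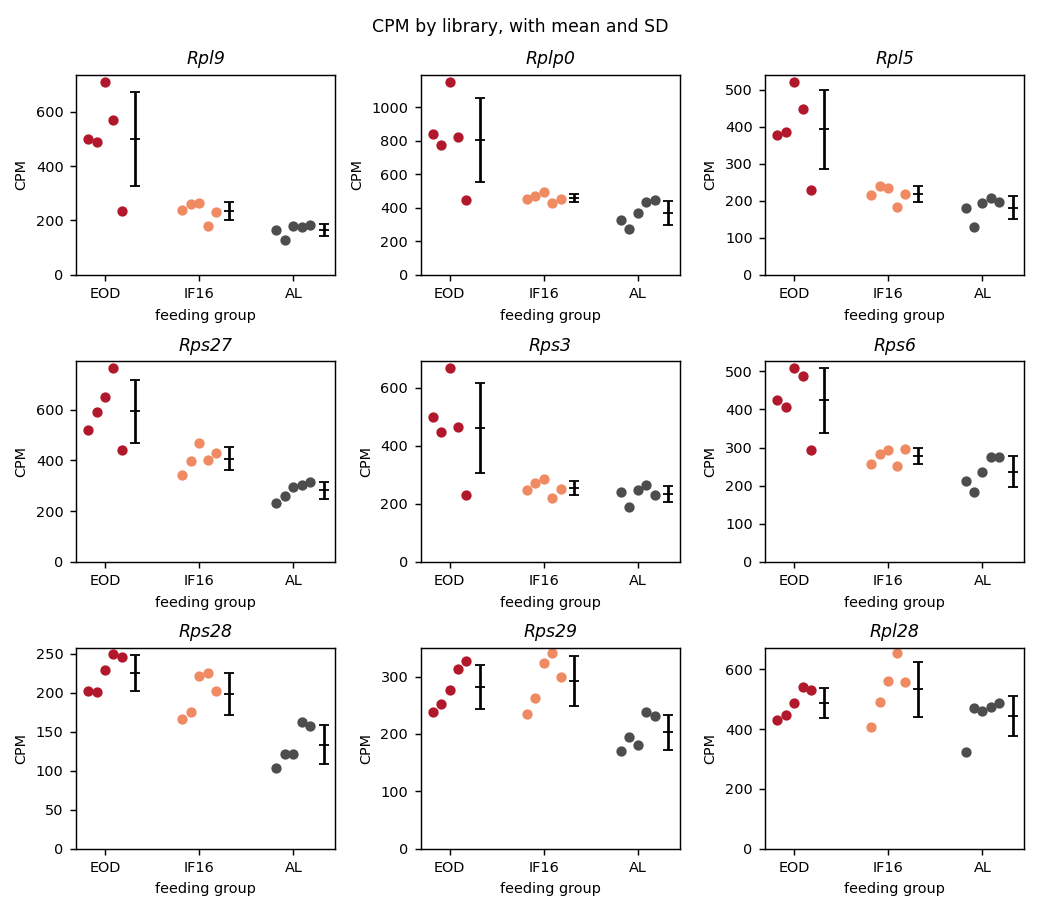
CPM in each library of 9 members in EOD, IF16 and AL, with mean and SD (n = 5) at the right of the points. EOD 5, the last point of its group, lies with the IF16 libraries for Rpl9, Rplp0, Rpl5, Rps3 and Rps6. For Rps28 it lies above all IF16 libraries. For Rps29 it is the highest EOD library but lies within the range of the IF16 libraries.

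Between the 2 fasting regimens, 25 of 78 members were higher in EOD than in IF16 and 0 were lower (0 at an unadjusted p under 0.05, and 0 with DESeq2 or limma), where 7.96% of all tested genes were higher and 8.15% lower in EOD. The median log2 fold change was 0.30, against 0.00 over all tested genes. Of the large subunit 11 of 46 and of the small subunit 14 of 32 were higher in EOD. Rpl9 had 237, 260, 266, 181 and 230 CPM in IF16 1 to 5, which the 4 EOD libraries other than EOD 5 all exceeded, and the log2 fold change was 1.09 (SE 0.21, adjusted p = 0.00257). Rps3 followed with 0.86 (SE 0.19, adjusted p = 0.00629), Rpl5 with 0.85 (SE 0.17, adjusted p = 0.00360), Rplp0 with 0.81 (SE 0.19, adjusted p = 0.00719) and Rpl41 with 0.75 (SE 0.19, adjusted p = 0.0138). Next were Rps19 (SE 0.16, adjusted p = 0.0115) and Rps9 (SE 0.14, adjusted p = 0.00588), both at 0.64. Of the 8 proteins at the exit tunnel 0 passed (1 at an unadjusted p under 0.05, and 0 with DESeq2 or limma), and Rps29 stood at -0.05 on the log2 scale (SE 0.13, adjusted p = 0.815). The comparisons of EOD and of IF16 with AL share the AL libraries.

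The EOD libraries differed among themselves. In EOD 3 and EOD 4, 68 and 70 of the 78 tested members were above every IF16 library, in EOD 1 and EOD 2 38 and 40, and in EOD 5 only 7. EOD 5 was above every AL library in 50 members and had the lowest EOD value in 60. For single libraries such counts were not taken over all tested genes, so that it is not known how far they are particular to the members. In 5 members every EOD library was above every IF16 library, which held for 4.63% of all tested genes. They were Rpl4, Rpl8, Rpl23, Rpl29 and Rps4x, of which Rpl4, Rpl23 and Rps4x are named here after their values were seen. Without EOD 5, 42 members were higher in EOD than in IF16, and without EOD 3 the count was 16. Calls over all tested genes were not counted in fits with a library left out. How far such shifts are particular to the members is thus not known. In EOD against AL the count without any single library ran from 62, without EOD 3 or without EOD 4, to 73, without EOD 5, and 61 of the 71 passed in every such fit. AL 1 had the lowest AL value in 58 members, and IF16 1 and IF16 3 had the lowest and the highest IF16 value in 59 and 61.

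**Figure D5:**
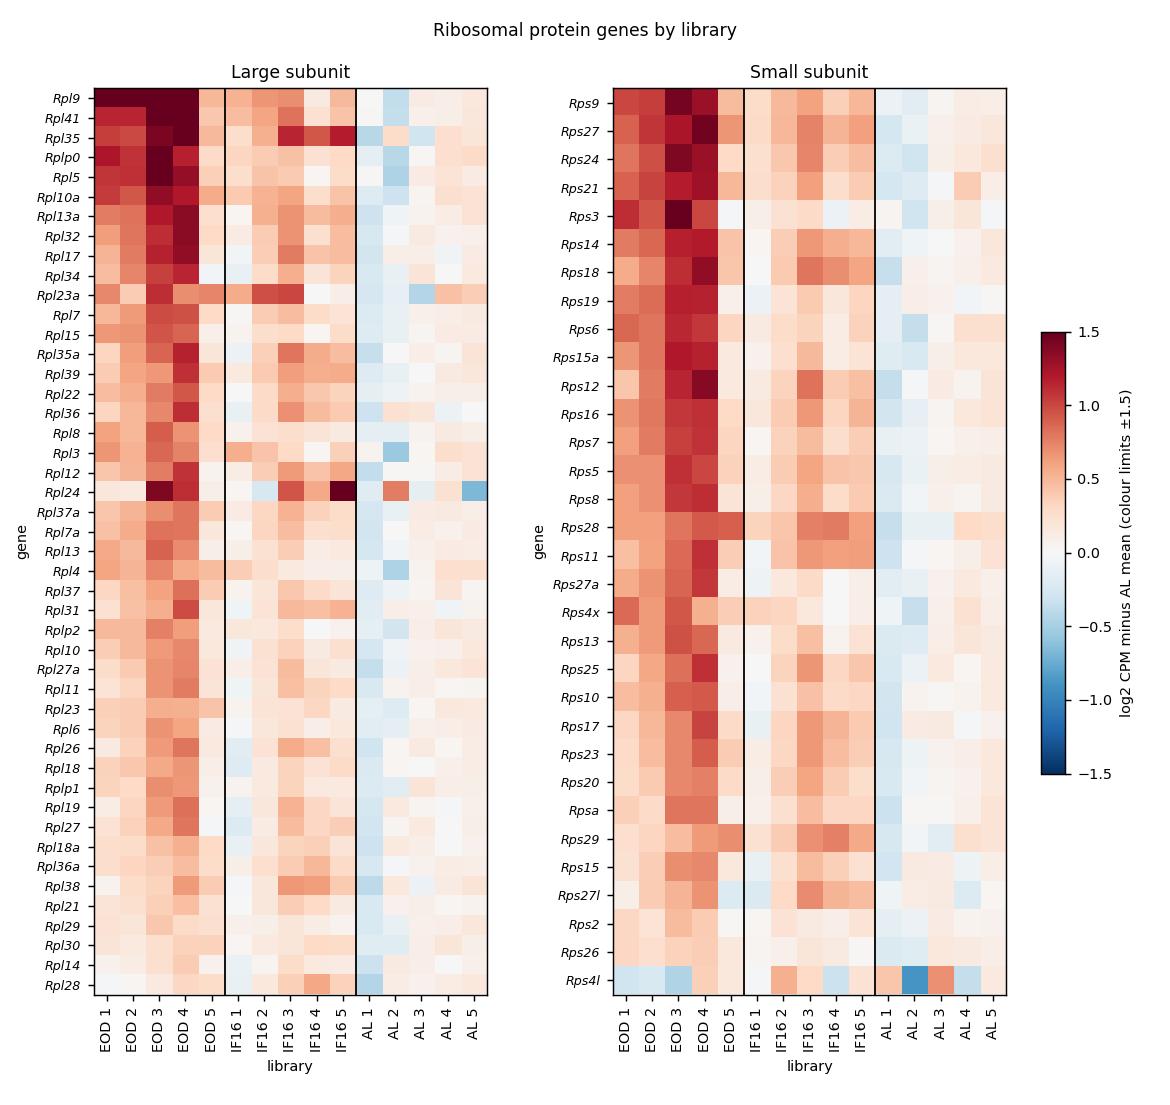
Log2 CPM of each tested member in each library minus its mean over the AL libraries, with members ordered by the EOD minus AL change. EOD 3 and EOD 4 are darkest, EOD 5 and IF16 1 are pale, and AL 1 is blue in most rows.

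The members are short genes, with a median length of 929 bases against 2984 bases over all tested genes, and 59.0% of them are under 1000 bases. Other genes under 1000 bases had a median log2 fold change of 0.07 in EOD against AL, of 0.11 in IF16 against AL and of 0.01 in EOD against IF16. After a trend with length had been removed from each library, 68 members were higher in EOD than in AL. The counts were 3 in IF16 than in AL and 35 in EOD than in IF16, and the 3 medians were 0.50, 0.23 and 0.27. In the usual fit 71, 3 and 25 members were higher, beside 17.6%, 1.40% and 7.96% of all tested genes. Such shares were not taken after the length correction. The members that overlap another gene had 18 of 20 calls in EOD against AL, and those that do not had 53 of 58. Over all tested genes, 17.6% were higher and 17.6% lower in EOD than in AL. Of the pseudogenes whose symbols begin with Rpl or Rps, 15 of 49 tested entries were higher and 3 lower in EOD than in AL, with a median of 0.38. Pseudogenes with other symbols were not counted with them. Reads of pseudogenes are hard to tell from those of their parents. Those named Rpl or Rps held 0.0232% ± 0.00448 of the counts in EOD, 0.0185% ± 0.00157 in IF16 and 0.0163% ± 4.04e-04 in AL (SD, n = 5 each).

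Rps3a1, Fau and Gnb2l1, which lie outside the symbol rule, rose in EOD. Rps3a1 rose in EOD against AL by 0.69 on the log2 scale (SE 0.12, adjusted p = 3.27e-04), Fau, a ubiquitin-like fusion to Rps30, by 0.84 (SE 0.15, adjusted p = 5.01e-04) and Gnb2l1, which encodes the scaffold Rack1, by 0.86 (SE 0.14, adjusted p = 2.51e-04). Rpl22l1, the paralog that can stand in for Rpl22, averaged 98.3 ± 30.8 CPM in EOD, 71.3 ± 8.68 CPM in IF16 and 39.9 ± 5.82 CPM in AL (SD, n = 5 each). It rose in EOD by 1.30 (SE 0.18, adjusted p = 5.47e-05) and in IF16 by 0.84 (SE 0.18, adjusted p = 0.0143) against AL, beside 0.62 and 0.32 for Rpl22. Rpl36al, the paralog of Rpl36a, was at -0.01 in EOD against AL (SE 0.10, adjusted p = 0.948), and did not pass.

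Most genes of a list of other messengers with a TOP start, mainly translation factors, rose in EOD as well. Of 14 tested, 12 were higher in EOD than in AL and 0 lower (0 at an unadjusted p under 0.05, and 0 with DESeq2 or limma), with a median log2 fold change of 0.53, where 17.6% of all tested genes were higher. The remaining 2 were Pabpc1, which binds poly(A) tails, at 0.06 (adjusted p = 0.692) and the RNA-binding protein gene Hnrnpa1 at 0.03 (adjusted p = 0.855). Eef1a1, which brings tRNA to the ribosome, averaged 6490 ± 1490 CPM in EOD and 3190 ± 437 CPM in AL (SD, n = 5 each), log2 fold change 1.02 (SE 0.15, adjusted p = 7.47e-05). Npm1, a nucleolar chaperone, rose by 0.93 (SE 0.09, adjusted p = 2.38e-06), the histone chaperone Nap1l1 by 0.53 (SE 0.09, adjusted p = 4.12e-04) and the initiation factor subunit Eif3e by 0.52 (SE 0.10, adjusted p = 6.46e-04). Of the 14, 1 was higher in IF16 than in AL, which was Npm1 at 0.46 (SE 0.09, adjusted p = 0.0101), and 9 were higher in EOD than in IF16. Over all tested genes, 1.40% were higher in IF16 than in AL and 7.96% in EOD than in IF16.

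Genes that process and assemble the subunits without being part of them were called in shares near those of all tested genes, of which 17.6% were higher and 17.6% lower in EOD than in AL. Of 43 genes that process and assemble the small subunit, 8 were higher and 8 lower in EOD than in AL, with a median of -0.07, and of 51 for the large subunit 7 were higher and 7 lower, with a median of 0.08. Imp3, of the small subunit processome, rose by 0.47 (SE 0.08, adjusted p = 2.64e-04), while Nol6 of the same machinery had -0.74 (SE 0.11, adjusted p = 8.63e-05). Among the large subunit factors Nsa2 rose by 0.60 (SE 0.12, adjusted p = 7.57e-04), and Eftud1, a GTPase of late maturation, had -0.76 (SE 0.12, adjusted p = 1.35e-04). Of 15 genes of RNA polymerase I and its factors, which transcribe ribosomal RNA, 4 were higher and 1 lower, with a median of -0.04, and Taf1d rose by 1.01 (SE 0.12, adjusted p = 1.14e-05).

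Of 20 genes of mTORC1 and of the control of TOP messengers, 1 was higher and 4 were lower in EOD than in AL, with a median of -0.16, and this share of lower genes is near the 17.6% of all tested genes. Eef2k, the kinase that slows elongation, averaged 2.91 ± 0.519 CPM in EOD and 7.77 ± 0.677 CPM in AL (SD, n = 5 each), log2 fold change -1.41 (SE 0.21, adjusted p = 8.16e-05). Mtor itself had -0.58 (SE 0.10, adjusted p = 2.47e-04) and its partner Rptor -0.32 (SE 0.09, adjusted p = 0.00875). Eif4ebp2, an inhibitor of cap binding, was the gene that rose, by 0.92 (SE 0.30, adjusted p = 0.0282), with AL 2 at 8.32 CPM far below the other AL libraries.

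Markers of the cell types in the tissue were counted beside these results. Over all tested genes, 17.6% were higher and 17.6% lower in EOD than in AL, and 1.40% were higher in IF16 than in AL. Of 10 hepatocyte markers 0 were higher and 1 was lower in EOD than in AL (3 higher at an unadjusted p under 0.05, 2 with DESeq2 and 2 with limma), and their summed level ran from 92900 to 121000 CPM in EOD, from 108000 to 138000 CPM in IF16 and from 89400 to 111000 CPM in AL. Of 10 markers of sinusoidal endothelium 7 were higher in EOD than in AL and 5 in IF16 than in AL, and their summed level was 308 to 380 CPM in EOD, 323 to 366 CPM in IF16 and 189 to 266 CPM in AL. Of 10 stellate cell markers 4 were higher and 1 was lower in EOD than in AL, at sums of 357 to 498 CPM in EOD, 356 to 393 CPM in IF16 and 231 to 387 CPM in AL. B and plasma cells, which are rich in ribosomes, had 2 of 8 markers lower in EOD, at sums of 53.9 to 109 CPM in EOD, 60.0 to 144 CPM in IF16 and 62.4 to 127 CPM in AL. Of 7 neutrophil markers 4 were too low to test and the other 3, S100a8, S100a9 and Csf3r, were lower in EOD than in AL with edgeR and with DESeq2 and 0 with limma. Their list summed to 2.05 to 5.83 CPM in EOD and 2.87 to 4.48 CPM in IF16, and to 35.4 and 32.8 CPM in AL 4 and AL 5 beside 2.64 to 3.80 CPM in AL 1 to 3. Of 10 Kupffer cell markers 1 was higher in EOD than in AL, at sums of 193 to 459 CPM in EOD, 183 to 504 CPM in IF16 and 146 to 349 CPM in AL. Of 6 tested cholangiocyte markers 2 were higher, at sums of 38.6 to 55.4 CPM in EOD, 33.2 to 46.6 CPM in IF16 and 38.6 to 62.5 CPM in AL. Of 9 T and NK cell markers and 5 tested erythroid markers 0 passed with edgeR, DESeq2 or limma (1 and 0 at an unadjusted p under 0.05). T and NK cell markers summed to 5.29 to 8.37 CPM in EOD, 5.82 to 8.09 CPM in IF16 and 6.26 to 8.27 CPM in AL, and erythroid markers to 275 to 505 CPM in EOD, 255 to 435 CPM in IF16 and 202 to 593 CPM in AL. No marker of these lists was at 0 in every library. Acute phase genes had sums of 16200 to 21300 CPM in EOD, 14400 to 16300 CPM in IF16 and 11700 to 58900 CPM in AL, where AL 4 and AL 5 had 41400 and 58900 CPM and AL 1 to 3 had at most 13800 CPM. Without these 2 libraries 70 members were higher in EOD than in AL, 3 in IF16 than in AL and 28 in EOD than in IF16. Calls over all tested genes were not counted in that fit. The part of endothelial, stellate and other cells in the ribosomal protein levels was not tested.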

How the data were processed

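Per the labels' protocols, poly-T beads were used to select liver messenger RNA and libraries were made with a NEBNext Ultra kit. The submitters' processing notes name STAR 2.5, HTSeq 0.6.1, DESeq2 2 and the build mm10, with no role or order. The authors deposited raw counts per Ensembl gene, 1 column per library. The deposited FPKM equal count over gene length and library total in 100% of cells (relative tolerance 1e-08) and were used for levels and as an alternative.

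The counts went into edgeR 4.0.16 (R 4.3.3). filterByExpr with a minimum count of 10 kept 13837 of 35275 genes. After TMM scaling, 1 model of all 15 libraries held a mean for every group, and groups were compared 2 at a time by the robust quasi-likelihood F test (glmQLFit, glmQLFTest). Adjusted p is Benjamini-Hochberg over all tested genes, with a threshold of 0.05. CPM are TMM-scaled. Standard errors come from dividing the absolute log2 difference by the root of F. The common biological coefficient of variation was 0.211. Chi-square over degrees of freedom was 24.9 to 219 for the 30 pairs of libraries of the same group, so no pair was merged. The floor of 3 counts covers counting error only. The scripts were tested on simulated data.

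Alternatives were other scalings, filters and groupings, DESeq2 1.42.0, limma 3.58.1 on log2 of FPKM plus 1 or plus 0.1, a length correction, the replicate number as a block and libraries left out. The members, the gene lists, the tests and the grouping by role were chosen with earlier results of these data known. Genes named are the 5 with the smallest p of each comparison and subunit past the threshold, the 2 largest and 2 smallest changes among members with at least 10 FPKM, the 3 highest and 3 lowest levels of each subunit, the untested members, Rplp0, Rplp1, Rplp2, Rpsa, Rps6, Rpl22 and Rpl22l1, and up to 4 genes of each list. Rpl4, Rpl11, Rpl19, Rpl23, Rpl26, Rpl30, Rps4x, Rps3a1, Rpl36al, Eif4ebp2, Pabpc1, Hnrnpa1, S100a8, S100a9 and Csf3r were named after their values were seen. The result of 1 gene that is not a member is not reported here.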

Additional observations from a re-analysis of the deposited data

Results flagged for a closer look

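Checked were 237 sets of 5 libraries, which are the genes and shares named above in each feeding group. Of these, 10 held a library far from the other libraries of its group. Chance alone flags about 1 in 20 sets of normally spread values, a share that these 10 do not exceed. AL 1 was far below the other AL libraries in 3 large subunit genes: Rpl28 at 324 CPM where the others had 459 to 488 CPM, Rpl11 at 301 CPM where the others had 361 to 380 CPM, and Rpl26 at 255 CPM where the others had 320 to 346 CPM. Rpl3l, the muscle copy of Rpl3, was at 0.891 CPM in IF16 5 and at 0.0534 to 0.0986 CPM in the other IF16 libraries. Rpl39l was at 0.160 CPM in IF16 4 with at most 0.0305 CPM in its group, and at 0.0345 CPM in AL 2 with 0 in its group. Rpl10l was at 0.0540 CPM in IF16 5 with 0 in its group, and these last 3 values rest on 1 to 6 counts. Where the rest of a group is at 0, as for Rpl39l in AL and Rpl10l in IF16, any count is flagged. AL 2 held 8.32 CPM of Eif4ebp2, where the remaining AL livers held between 15.1 and 17.3 CPM. Hnrnpa1 stood at 50.3 CPM in AL 4 with 38.2 to 41.3 CPM for the rest of its group, and S100a8 at 1.69 CPM in EOD 4 with 0.520 to 0.846 CPM for the rest of its group.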

How the results depend on the processing

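For EOD against AL, 66 to 73 of 78 members were called higher under the other tests, scalings, filters and corrections run with no library left out of the compared groups, and the median log2 fold change was 0.50 to 0.62. With each library left out in turn the counts ran from 62 to 73 in EOD against AL, from 0 to 9 in IF16 against AL and from 16 to 42 in EOD against IF16, and the medians from 0.52 to 0.72, from 0.24 to 0.34 and from 0.22 to 0.39. Of the 3 calls of IF16 against AL 0 were kept in all of these fits, and 61 of 71 and 16 of 25 in EOD against AL and EOD against IF16. For the alternatives, calls over all tested genes were not counted. In IF16 against AL the count was 7 with DESeq2, 8 with the 2 groups fitted alone and 7 with limma on log2 FPKM plus 1 or plus 0.1, and the cause was not tested.

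Replicate numbers were not treated as pairs, since deviations of same-numbered libraries correlated at -0.13 to 0.218. With the replicate block 73, 6 and 27 members were higher in EOD against AL, IF16 against AL and EOD against IF16, and with the length correction and the replicate block 68, 6 and 35.

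Changes of sign concerned members with small differences. In IF16 against AL, Rps4l was at -0.01 and Rps26 at -0.04 with the length correction, and Rps26 at -0.05 with the block as well. With single libraries left out Rps4l ran from -0.10 to 0.25 in IF16 against AL and from -0.33 to 0.03 in EOD against AL, and without both AL 4 and AL 5 it was at -0.03 in IF16 against AL. In EOD against IF16 with single libraries left out, Rpl38 ran from -0.11 to 0.04, Rps27l from -0.16 to 0.07, Rps29 from -0.10 to 0.02 and Rpl24 from -0.28 to 0.27, and Rpl24 was at 0.00 with limma on log2 FPKM plus 0.1. Depth limits the values of Rpl24 and of the 3 untested paralogs.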
